A study of Mus musculus with 9 samples.

Results

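Endothelial cells sorted from the lungs of Notch1f/f mice were compared with the same cells from DNMAML mice, with 3 RNA libraries of each genotype and all genes in the count table. The series holds 9 libraries, and the other 3 come from WT mice, used here to show where the unmodified level lies. All mice were C57BL/6 and 6 weeks old, and all cells were sorted as viable by DAPI, without the leukocyte antigen CD45 and with the endothelial antigen CD31. A floxed Notch1 allele, written Notch1f/f, carries recombination sites so that a recombinase can remove part of the gene. DNMAML stands for a dominant-negative form of a Mastermind-like coactivator. For neither genotype do the labels name the recombinase, its driver or the cells in which it acts. They also do not say whether each library came from a separate mouse, so p-values measure the spread between these libraries. By the names of the genotypes, the comparison sets loss of a single receptor against a block below all the receptors. Whether the block acted in these cells was not tested.

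Notch receptors are cell-surface proteins that are cut when a neighbouring cell presents a Delta-like or Jagged ligand. The freed intracellular domain enters the nucleus and joins the DNA-binding protein Rbpj and a Mastermind-like coactivator, which together switch on genes such as those of the Hes and Hey repressors. In blood vessels this signalling is known for restraining sprouting tip cells and for supporting the arterial state. A truncated Mastermind-like protein occupies the complex without activating transcription, whichever Notch receptor supplied the intracellular domain.

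Of 19486 genes tested, 2 were higher and 2 were lower in Notch1f/f than in DNMAML at an adjusted p below 0.05 (edgeR quasi-likelihood test with Benjamini-Hochberg adjustment). That is 0.0103% of the genes tested in each direction and 0.0205% in both together. DESeq2 called 56 higher and 116 lower, 0.883% of all genes, and 1241 genes (6.37%) had an unadjusted p below 0.05 by edgeR. Of those 1241 genes, 469 were higher (2.41% of the genes tested) and 772 were lower (3.96%). The 3 libraries of each genotype did not overlap for 1037 genes that were lower in Notch1f/f (5.32%) and 858 that were higher (4.4%), together 9.72%. These shares are the background for every count of list members below. Over all genes the median log2 difference was 0.00, and 50.5% of genes had a positive one.

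The 4 genes past the threshold are the nuclear mitochondrial copy Gm28438, the mitochondrial gene mt-Nd3, Cmtm8 and the small RNA gene Rprl3. mt-Nd3 encodes a subunit of respiratory complex I and lies on the mitochondrial chromosome at positions 9459 to 9806. Gm28438 lies on chromosome 1 at positions 24651856 to 24652200 on the reverse strand (build GRCm39). The start of both transcripts, in the GENCODE annotation of build GRCm38, is shown because the shared stretch of the pair differs at a single base, which is in capitals.
mt-Nd3: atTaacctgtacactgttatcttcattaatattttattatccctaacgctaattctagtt
Gm28438: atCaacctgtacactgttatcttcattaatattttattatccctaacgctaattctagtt
Over the 345 bases they share, the transcripts differ at 1 base, T3C, with the mt-Nd3 base first and positions counted from 1 at the first base of the transcript. Only the first 60 bases are printed. Levels of both genes are therefore uncertain as measures of separate transcripts.

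Gm28438 was lower in Notch1f/f, and it is the only gene that passed under every setting tried. Its level was 280, 212 and 365 CPM in DNMAML libraries 1, 2 and 3 and 38, 51.7 and 47.6 CPM in Notch1f/f libraries 1, 2 and 3. CPM is a gene's count set against its library's size after scaling. The genotypes did not overlap, and the WT libraries held 139 to 234 CPM, nearer to DNMAML. The log2 difference was -2.64 (SE 0.24, n = 3 and 3), a 6.24-fold lower level in Notch1f/f, with an edgeR adjusted p of 0.00309.

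mt-Nd3 was higher in Notch1f/f. It stood at 3.21, 1.3 and 4.46 CPM in DNMAML and at 54.2, 79.8 and 71 CPM in Notch1f/f, while WT held 1.03 to 2.5 CPM. All 3 Notch1f/f libraries were above all 6 others. The log2 difference was 4.50 (SE 0.44, 95% interval 3.51 to 5.49), a 22.6-fold higher level, with an edgeR adjusted p of 0.00943. The call was lost without DNMAML replicate 1 (edgeR adjusted p = 0.122). The sum of mt-Nd3 and Gm28438 was 284, 213 and 369 CPM in DNMAML and 92.2, 132 and 119 CPM in Notch1f/f. In WT libraries 1, 2 and 3 it was 178, 140 and 236 CPM. The sum was thus lower in all 3 Notch1f/f libraries than in all 6 others, unlike mt-Nd3 alone. Of 13 protein genes of the mitochondrial chromosome tested, 9 had a positive difference with a median of 0.16, and mt-Nd3 alone had an unadjusted p below 0.05.

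Cmtm8 encodes a membrane protein of the CMTM family, which carries a MARVEL domain. The gene lies on chromosome 9 at positions 114618413 to 114673224, on the reverse strand of GRCm39. It was measured at 7.62, 10.4 and 8 CPM in DNMAML and at 35.2, 29.9 and 42.3 CPM in Notch1f/f. WT held 5 to 7.85 CPM, and all 3 Notch1f/f libraries were above the other 6. The log2 difference was 2.05 (SE 0.24, 95% interval 1.52 to 2.57), a 4.13-fold higher level, with an edgeR adjusted p of 0.0101. The call was lost without DNMAML replicate 1 (edgeR adjusted p = 0.122) and without DNMAML replicate 3 (0.11), where the difference was 1.96 and 2.00.

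Rprl3, named for its likeness to the RNA of ribonuclease P, lies on chromosome 8 at positions 3853069 to 3853358. It had 0 counts in all 3 Notch1f/f libraries. DNMAML libraries held 123, 290 and 324 counts, or 4.93, 14.5 and 11.8 CPM, and WT libraries held 6.93 to 11 CPM. Most low counts in the table were even, as when both reads of a pair are counted, so the floor was set at 3 fragments, or 6 counts, per library. Against that floor, the level was at least 35.8-fold lower in Notch1f/f (edgeR adjusted p = 0.00309). Limma-voom did not call it (adjusted p = 0.387). Rprl3 may share reads with related small RNA genes, so its level is uncertain. With the 6 libraries fitted without WT, Gm28438 still passed, while mt-Nd3 and Cmtm8 (edgeR adjusted p = 0.0514 for each) and Rprl3 (0.0655) did not.

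**Figure D1:**
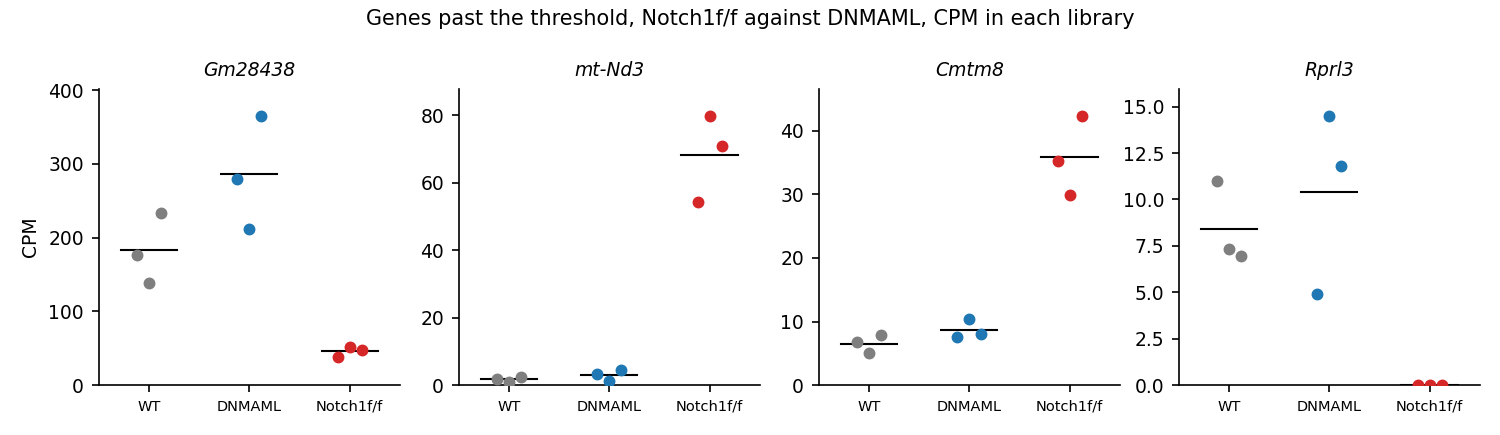
CPM of the 4 genes past the threshold in each library, with WT, DNMAML and Notch1f/f along the x axis; points are libraries and bars are group means. For each gene the 3 Notch1f/f points lie apart from the 3 DNMAML points and from the 3 WT points, and Rprl3 is at 0 in Notch1f/f.

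**Figure D2:**
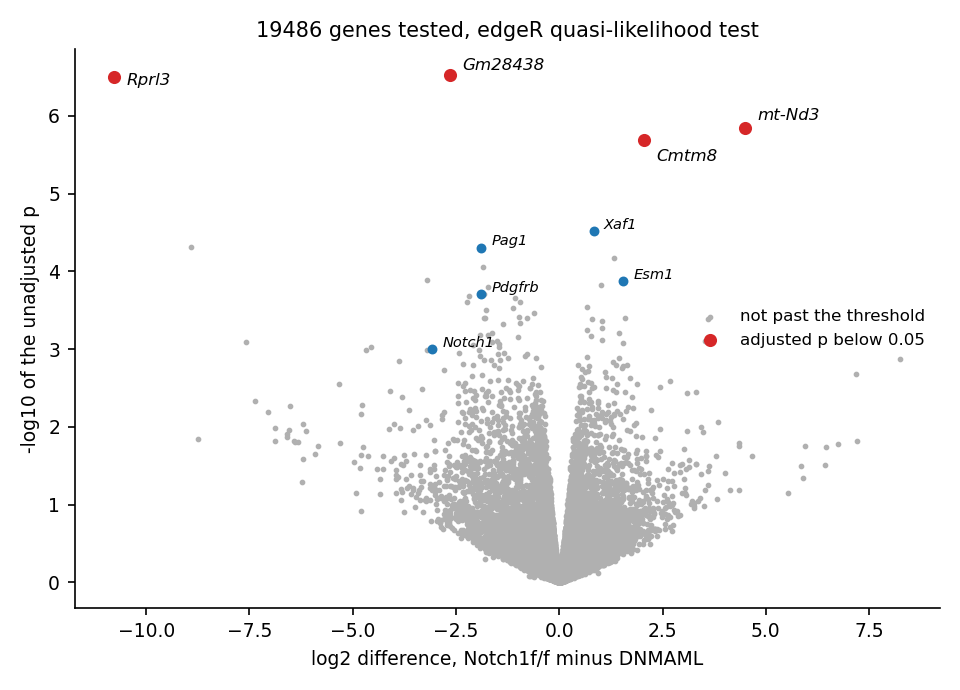
The log2 difference (Notch1f/f minus DNMAML, x axis) against -log10 of the unadjusted p (y axis) for 19486 genes, with the 4 genes past the threshold in red and 5 other genes in blue. Fitted differences of genes with 0 counts in a whole group, such as Rprl3, depend on the prior count and are no measure of size. Notch1 lies at -3.08 and did not pass.

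The targeted receptor was checked first among the Notch genes. Notch1 (chromosome 2, positions 26347915 to 26406675, GRCm39) stood at 679, 872 and 777 CPM in DNMAML and at 70.8, 29.5 and 176 CPM in Notch1f/f. WT libraries held 766 to 909 CPM, so the DNMAML libraries were at the WT level and every Notch1f/f library was far below it. The 3 Notch1f/f libraries also differed among themselves, with the highest in replicate 3. The log2 difference was -3.08 (SE 0.59, 95% interval -4.45 to -1.70), 8.43-fold lower, and it did not pass (edgeR adjusted p = 0.368). It passed by DESeq2 (adjusted p = 5.44e-05), by limma-voom (0.0297) and by edgeR without Notch1f/f replicate 3 (0.0133). Whole-gene counts do not show which exons remain, and the table gives no separate value for a DNMAML transgene. Maml1, a gene for a Mastermind-like coactivator, differed by -0.07 (95% interval -0.39 to 0.26).

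None of the other receptors passed. Notch3, best known from the smooth muscle cells and pericytes around vessels, stood at 84.2, 43.1 and 80.1 CPM in DNMAML and 15.3, 18.1 and 25.6 CPM in Notch1f/f. The libraries did not overlap, and the difference of -1.82 (SE 0.31) did not pass (edgeR adjusted p = 0.254). Notch2 stood at 81.8, 59.9 and 73 CPM against 53.3, 34.4 and 44.6 CPM, again with no overlap. Its difference was -0.70 (SE 0.19, edgeR adjusted p = 0.49). Notch4, a receptor known from endothelium, overlapped between the genotypes at 354 to 587 CPM in DNMAML and 368 to 575 CPM in Notch1f/f, with a 95% interval of -0.43 to 0.47. Of the 4 receptors, Notch1, Notch2 and Notch3 had an unadjusted p below 0.05 and were lower in Notch1f/f, where the background is 3.96%. Notch1 is the floxed gene itself, so its place in this count follows from the design. Notch3 is counted again on the Notch target list.

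Among the ligands, Jag1 and Dll1 were higher in Notch1f/f and Dll4 overlapped. Jag1 stood at 66, 78.9 and 86.9 CPM in DNMAML and at 92.8, 97.6 and 96.1 CPM in Notch1f/f. Its difference was 0.31 (95% interval 0.02 to 0.59), and WT lay above both at 99.6 to 120 CPM. Dll1 differed by 0.42 (95% interval 0.10 to 0.74), and its libraries overlapped. Dll4, the ligand known for restraining tip cells, differed by -0.15 (95% interval -0.50 to 0.21). No ligand or fringe gene passed. Of 7 tested, 2 had an unadjusted p below 0.05 higher (background 2.41%) and 1 lower (3.96%).

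The transcription partner Rbpj stood at 44.9 to 53.3 CPM in DNMAML and 43.7 to 48.8 CPM in Notch1f/f, with a 95% interval of -0.33 to 0.21 for its difference. Of the 27 genes for the Notch complex, its cleavage and its turnover, none passed, and Dtx4 alone had an unadjusted p below 0.05 (difference -1.39, SE 0.52). Dtx4, a member of the deltex family of ubiquitin ligases, stood at 17.5, 8.79 and 13.7 CPM in DNMAML and 4.3, 2.48 and 8.57 CPM in Notch1f/f. The median difference of the 27 genes was 0.01.

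Of 31 listed Notch targets tested, 4 were lower in Notch1f/f without overlap (background 5.32%) and 1 was higher (4.4%), while the rest overlapped. Hes1, a repressor switched on by Notch in many tissues, stood at 58.6, 44 and 93.5 CPM in DNMAML and 40.5, 36.1 and 79 CPM in Notch1f/f. WT held 79 to 140 CPM. The Hes1 difference was -0.34 with a 95% interval of -1.21 to 0.54, which includes both 0 and a 2-fold lower level. Hey1, a related repressor known from arterial endothelium, differed by -0.27 (95% interval -0.72 to 0.18). The connexin gene Gja5 differed by -0.26 (95% interval -0.92 to 0.40), Gja4 by 0.19 (-0.58 to 0.96), and Nrarp, a feedback inhibitor, by -0.35 (-1.32 to 0.62). None of these 5 genes had libraries apart between the genotypes.

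Heyl and Efnb2 showed larger differences. Heyl, a further Hes-related repressor also known from mural cells, stood at 28.2, 12.8 and 20.9 CPM in DNMAML and 5.1, 4.34 and 9.25 CPM in Notch1f/f. WT held 15.7 to 30.4 CPM, like DNMAML. The difference was -1.73 (SE 0.37, edgeR adjusted p = 0.331), with no overlap. Efnb2, the arterial ephrin ligand, stood at 552, 761 and 812 CPM against 561, 355 and 587 CPM, and WT held 1036 to 1070 CPM, above every library of both genotypes. Its difference was -0.50 (95% interval -0.93 to -0.07). Of 31 Notch targets tested, 5 had an unadjusted p below 0.05 lower (background 3.96%) and 2 higher (2.41%). The median was -0.15, and none passed.

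**Figure D3:**
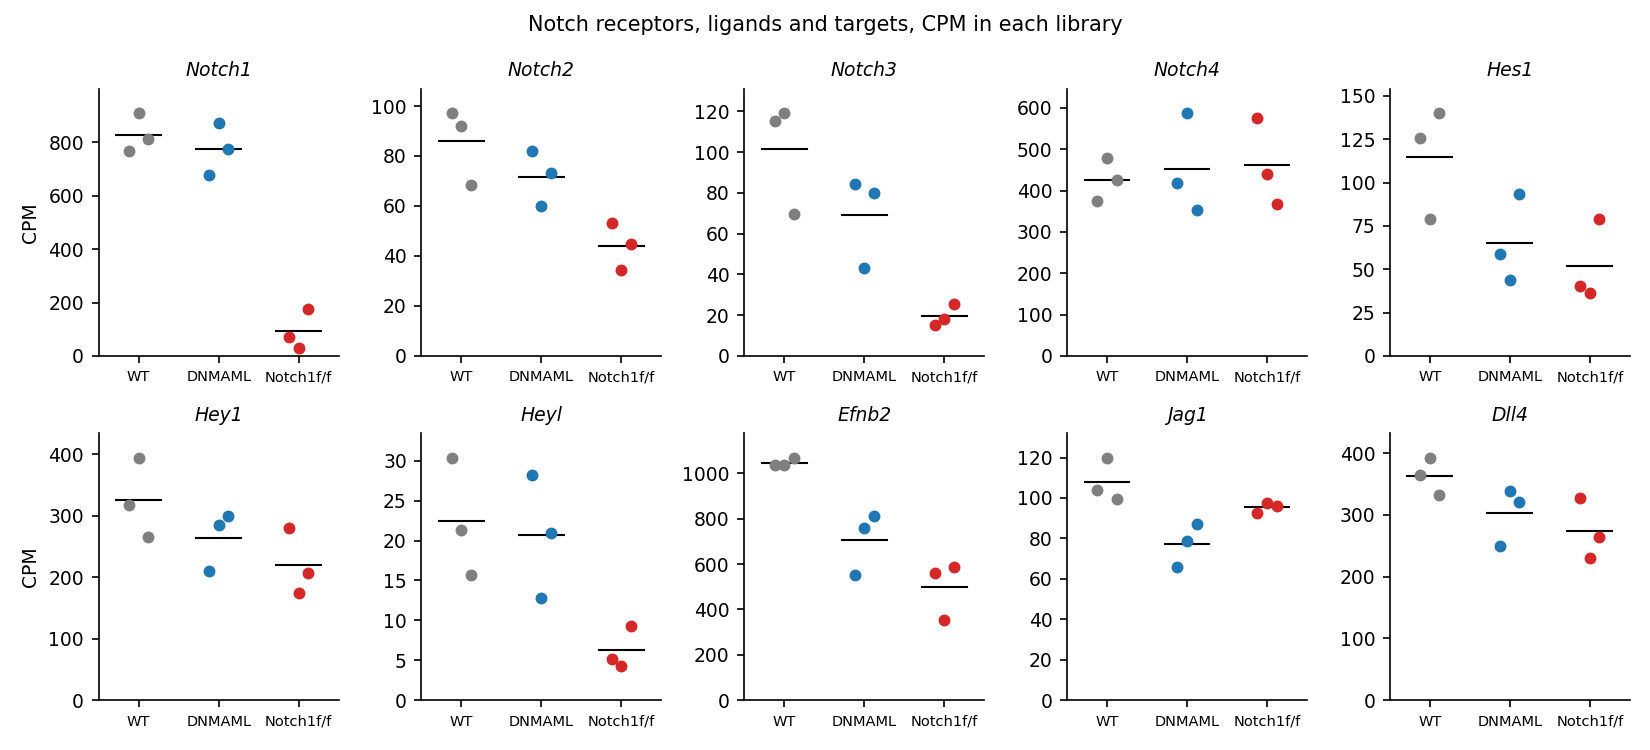
CPM of 10 Notch receptors, ligands and targets in each library (x axis, genotype), with group means as bars. Notch1, Notch2, Notch3 and Heyl are lower in all 3 Notch1f/f libraries, Jag1 is higher in them, and Notch4, Hes1, Hey1, Efnb2 and Dll4 overlap.

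Notch3 is also on the mural list, the genes of the pericytes and smooth muscle cells that wrap vessels. Of 24 mural genes tested, 22 had a negative difference, 13 had an unadjusted p below 0.05 lower against a background of 3.96%, and none passed by edgeR. DESeq2 called 9. Their median was -1.31. The summed level of the mural list was 1320 to 2746 CPM in DNMAML and 690 to 1167 CPM in Notch1f/f, and 2053 to 3185 CPM in WT. In bulk samples, fewer cells of a type and less RNA per cell cannot be told apart, and the part of mural cells in the Notch3 and Heyl differences was not tested.

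Pdgfrb, the pericyte receptor for platelet-derived growth factor, stood at 193, 90.2 and 170 CPM in DNMAML and 34.1, 33 and 54.5 CPM in Notch1f/f. Its difference was -1.90 (SE 0.32, edgeR adjusted p = 0.254). Cspg4, the pericyte proteoglycan NG2, stood at 27.6, 11.9 and 27.6 CPM against 5.19, 6.64 and 8.46 CPM, a difference of -1.73 (SE 0.32). Gucy1a1, a subunit of the nitric oxide receptor in mural cells, differed by -1.91 (SE 0.37). For each of these 3 genes no library of one genotype reached the other. The contractile genes Acta2 and Myh11 overlapped, with differences of -0.54 (95% interval -1.45 to 0.37) and -0.55 (-1.28 to 0.18). Of other pericyte genes, Higd1b differed by -1.63 (SE 0.37) without overlap. Rgs5 overlapped, at 22.2 to 29.5 CPM in DNMAML and 20.9 to 23.1 CPM in Notch1f/f (-0.29, 95% interval -0.68 to 0.11).

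The DNMAML libraries were uneven for these genes, and replicate 2 was the lowest of the 3 in Pdgfrb, Cspg4 and Notch3. Without DNMAML replicate 2, Pdgfrb passed at -2.18 (edgeR adjusted p = 0.00762) and Notch3 at -2.08 (0.0123). The whole comparison then gave 10 genes higher and 21 lower. Postn and Hgf, genes for secreted proteins known from stromal cells, were also lower in Notch1f/f. Postn stood at 341, 159 and 359 CPM against 44.4, 49.1 and 109 CPM (difference -2.09, SE 0.45), and Hgf at 50.3 to 52.7 CPM against 29.2 to 31 CPM (-0.77, SE 0.16). Neither passed.

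Markers of other cell types were present in both genotypes. The endothelial genes Pecam1 and Cdh5 overlapped between the genotypes. Pecam1, which encodes CD31, stood at 3408 to 3901 CPM in DNMAML and 3430 to 4353 CPM in Notch1f/f. Cdh5 stood at 5747 to 6310 CPM against 5366 to 6497 CPM. Of 29 endothelial genes tested, 3 were lower in Notch1f/f without overlap (background 5.32%), Kdr among them, and 1 was higher (4.4%). The leukocyte gene Ptprc, which encodes CD45, stood at 28, 26.7 and 1.39 CPM in DNMAML and 14.5, 4.96 and 1.58 CPM in Notch1f/f. The surfactant gene Sftpc ranged from 67.5 to 829 CPM in DNMAML and from 65.9 to 552 CPM in Notch1f/f. Fibroblast genes summed to 3838 to 6284 CPM in DNMAML and 2938 to 3663 CPM in Notch1f/f. Their median difference was -1.31 over 22 genes, 20 of them negative. Of the 22, 4 had an unadjusted p below 0.05 lower (background 3.96%) and 1 was lower without overlap (5.32%). DESeq2 called none, and the markers Col1a1, Dcn and Pdgfra overlapped between the genotypes. The part of fibroblasts in the Postn and Hgf differences was not tested. The fibroblast median was -0.76 without DNMAML replicate 1, and leaving out replicate 3 of Notch1f/f gave -2.28. Epithelial genes had a median of -0.75 over 26 genes and neutrophil genes -1.65 over 11, and their summed levels overlapped between the genotypes. Over the settings tried, the epithelial median ran from -1.47 to -0.41 and the neutrophil median from -2.44 to -0.87. Among defining markers, the T cell gene Cd3e was at 0 in DNMAML replicate 3 and Notch1f/f replicate 2.

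**Figure D4:**
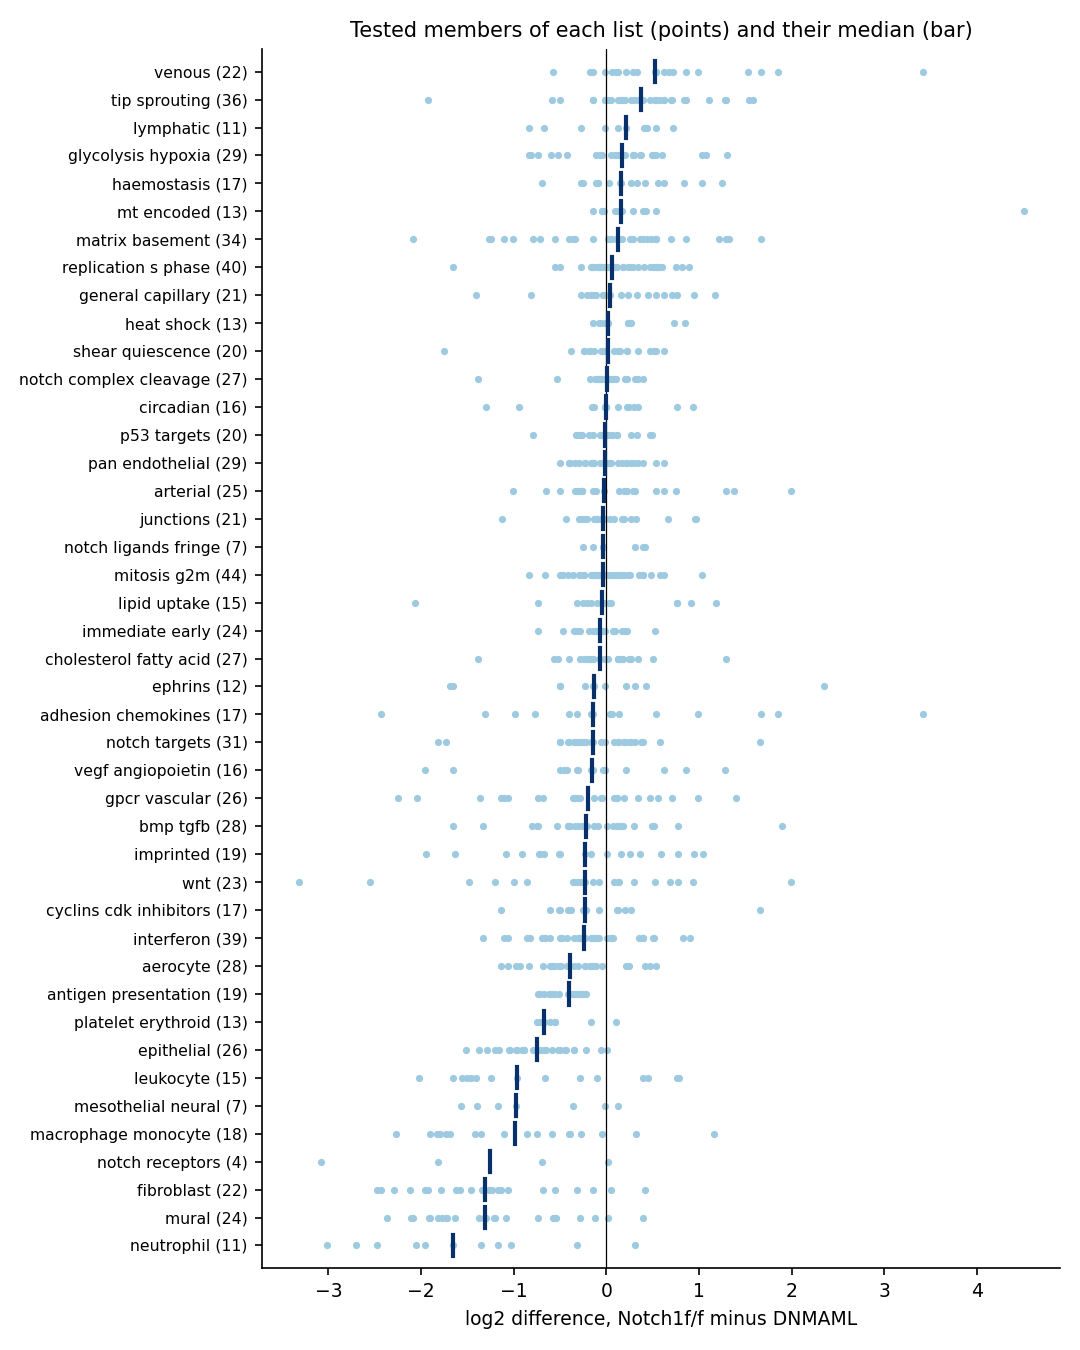
Log2 differences (Notch1f/f minus DNMAML, x axis) of the tested members of 43 gene lists (rows, number tested in brackets), with each list's median as a bar. The mural, fibroblast and neutrophil medians lie at -1.31, -1.31 and -1.65, the aerocyte median at -0.39, and the venous and tip medians at 0.52 and 0.37, where all genes tested give 0.00.

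Lung capillaries hold 2 known endothelial types, the thin aerocytes across which gas is exchanged and the general capillary cells that act as their progenitors. Of 28 aerocyte genes tested, 23 were negative and 14 had an unadjusted p below 0.05 lower, against a background of 3.96%. The median was -0.39, and 2 genes, Emcn and Cd34, had such a p in the other direction. No aerocyte gene passed by edgeR and 1, Kdr, by DESeq2. The summed level of the list was 14267 to 16628 CPM in DNMAML and 11714 to 14036 CPM in Notch1f/f.

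Kdr encodes the main endothelial receptor for vascular endothelial growth factor. It stood at 2298, 1949 and 2566 CPM in DNMAML and at 1569, 1456 and 1792 CPM in Notch1f/f, with WT at 1958 to 2184 CPM. Every Notch1f/f library was below every other library. The difference was -0.50 (SE 0.15, 95% interval -0.82 to -0.18), with an edgeR adjusted p of 0.548 and a DESeq2 adjusted p of 0.0476. Kdr is on both the aerocyte and the Notch target list, and its promoter window is printed because it holds the core that Rbpj binds, TGGGAA, in capitals.
Kdr: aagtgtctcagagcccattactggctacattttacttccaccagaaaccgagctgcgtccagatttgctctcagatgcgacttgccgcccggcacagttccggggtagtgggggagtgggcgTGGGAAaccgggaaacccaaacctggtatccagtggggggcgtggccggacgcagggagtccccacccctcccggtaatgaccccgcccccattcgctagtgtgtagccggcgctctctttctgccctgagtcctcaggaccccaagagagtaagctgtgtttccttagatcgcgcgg
The sequence is RefSeq's, on build GRCm38.p6 at chr5:75978406-75978705 on the reverse strand, from 250 bases before to 50 after the start. TGGGAA, searched on both strands, occurs in 25.6% of all 32851 such windows and in at least 1 window of 28.3% of 27025 genes. Of 35 Notch target genes listed, 23 had a window and 5 (21.7%) held the core: Cdkn1a, Hes5, Hes7, Hey2 and Kdr. A match is a description of letters and shows no binding.

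Other aerocyte genes gave the same direction with their own spread. Cyp4b1, a cytochrome P450 gene, stood at 807, 572 and 979 CPM in DNMAML and 446, 186 and 500 CPM in Notch1f/f, with WT at 1042 to 1577 CPM. The difference was -1.06 (SE 0.36, edgeR adjusted p = 0.642). Car4, a carbonic anhydrase used as an aerocyte marker, stood at 573, 609 and 646 CPM against 479, 361 and 514 CPM, a difference of -0.43 (95% interval -0.80 to -0.07). Kitl, the ligand of the receptor Kit on general capillary cells, stood at 500, 415 and 590 CPM against 351, 314 and 395 CPM (-0.51, SE 0.15). For these 3 genes the genotypes did not overlap. Ednrb and Tbx2 overlapped, with 95% intervals of -1.61 to 0.25 and -1.44 to -0.23. Apln, made by aerocytes and tip cells, stood at 197, 127 and 209 CPM in DNMAML and 91.8, 138 and 123 CPM in Notch1f/f, where WT held 84.3 to 102 CPM.

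Of 21 general capillary genes, 4 had an unadjusted p below 0.05 higher (background 2.41%) and 1 lower (3.96%), and the median was 0.04. Aplnr, the receptor for apelin, stood at 295, 441 and 373 CPM in DNMAML and at 474, 800 and 546 CPM in Notch1f/f, with WT lower at 242 to 249 CPM. The 3 genotypes did not overlap in Aplnr. Its difference was 0.71 (SE 0.20, 95% interval 0.29 to 1.14, edgeR adjusted p = 0.49).

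Of 22 venous genes tested, 18 were positive, 7 had an unadjusted p below 0.05 higher against a background of 2.41%, and none had one lower. The median was 0.52, or 0.27 without Notch1f/f replicate 2. The summed level of the list overlapped, at 2687 to 3295 CPM in DNMAML and 2968 to 3985 CPM in Notch1f/f. The venous marker Vwf also overlapped (difference 0.33, 95% interval -0.11 to 0.76), with WT above both genotypes at 1550 to 1883 CPM. Lrg1, which encodes a secreted glycoprotein of venous endothelium, stood at 6.22, 8.94 and 7.42 CPM in DNMAML and 11.4, 25.1 and 28.9 CPM in Notch1f/f (difference 1.53, SE 0.38, edgeR adjusted p = 0.42). Ackr1, the chemokine-binding receptor of venules, stood at 0.401, 0.699 and 0.877 CPM against 1.66, 16.2 and 3.44 CPM. Its difference of 3.42 (SE 1.09) had replicate 2 as the highest library by far. Prss23 stood at 22.4 to 31.1 CPM against 33 to 55.8 CPM (0.72, SE 0.20), with no overlap. Of 25 arterial genes, 5 had an unadjusted p below 0.05 higher (background 2.41%) and 2 lower (3.96%), with a median of -0.03.

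Genes of tip cells, which lead new sprouts, were also mostly positive: 29 of 36, with a median of 0.37. Of the 36, 10 had an unadjusted p below 0.05 higher (background 2.41%) and 3 lower (3.96%). The median was 0.18 without Notch1f/f replicate 2. Apln, also a tip gene, went the other way, with a difference of -0.59 (95% interval -1.02 to -0.16). Esm1, a secreted proteoglycan and a standard tip cell marker, held 7.38, 12.4 and 11.8 CPM in DNMAML, 34.5, 36.5 and 20.6 CPM in Notch1f/f and 22.2 to 34.7 CPM in WT. The Notch1f/f libraries spanned the WT range, and all DNMAML libraries were below it. The Notch1f/f minus DNMAML difference was 1.54 (SE 0.28, 95% interval 0.93 to 2.14, edgeR adjusted p = 0.238). DESeq2 called it (adjusted p = 0.000331).

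In 10 of the 36 tip genes every library of both genotypes was above every WT library. In each of these 10 the mean was higher in Notch1f/f than in DNMAML. The share of all genes tested with either pattern was not counted, so these counts have no background beside them. Of these 10 genes, Trp53i11 stood at 58, 76 and 56.2 CPM in DNMAML and at 114, 324 and 132 CPM in Notch1f/f. WT held 25.4 to 40.5 CPM, and the difference was 1.58 (SE 0.39, edgeR adjusted p = 0.49). Fscn1, which bundles actin in cell protrusions, stood at 88.6, 111 and 79 CPM against 91.7, 310 and 202 CPM, with WT at 16.9 to 33.2 CPM. Col4a1, a chain of basement membrane collagen, stood at 2872, 4408 and 2619 CPM against 4179, 8435 and 5343 CPM, with WT at 1617 to 2287 CPM. Fscn1 and Col4a1 overlapped between the genotypes, and their differences were 1.11 (SE 0.42) and 0.86 (SE 0.28). In Trp53i11, Fscn1 and Col4a1, Notch1f/f replicate 2 was the highest and replicate 1 the lowest.

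Further vascular genes with libraries apart between the genotypes were higher in Notch1f/f without passing. Plat, the tissue plasminogen activator gene, stood at 48.7, 67.6 and 41.8 CPM in DNMAML and 77.4, 131 and 114 CPM in Notch1f/f (difference 1.03, SE 0.22). Jam2, a junction protein gene, stood at 112, 155 and 147 CPM against 225, 232 and 198 CPM (0.66, SE 0.14). Abca1, the cholesterol exporter gene, stood at 88.2, 162 and 89.3 CPM against 207, 389 and 232 CPM (1.29, SE 0.29), and Bmp2, a growth factor gene, at 2.7 to 5.99 CPM against 13 to 19.5 CPM (1.89, SE 0.50). Their edgeR adjusted p-values ran from 0.311 for Plat to 0.49 for Bmp2. In the other direction, Cx3cl1, which encodes a membrane-bound chemokine, stood at 82.7, 74.1 and 110 CPM against 45.9, 33.7 and 54.5 CPM (-0.99, SE 0.22). Cdk6, a cell cycle kinase gene, stood at 119, 99 and 112 CPM against 66.2, 68.5 and 81.9 CPM (-0.61, SE 0.12).

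Of 17 cyclin, cyclin-dependent kinase and inhibitor genes tested, 5 were lower in Notch1f/f without overlap (background 5.32%), 4 had an unadjusted p below 0.05 lower (3.96%), Cdk6 among them, and none had one higher. Their median was -0.23. Of 44 mitosis genes tested, none had an unadjusted p below 0.05, and the median was -0.04. Mki67, a marker of cycling cells, stood at 122, 146 and 103 CPM in DNMAML and at 29.1, 138 and 184 CPM in Notch1f/f, where WT held 5.51 to 7.18 CPM. Both genotypes were thus above WT in every library, and Notch1f/f replicate 1 was the lowest of the 6. The Mki67 difference was -0.08 with a 95% interval of -1.43 to 1.26, wide enough to leave a 2-fold difference in either direction undetected. The summed mitosis list ran from 564 to 666 CPM in DNMAML and from 184 to 889 CPM in Notch1f/f. The 40 DNA replication genes had a median of 0.06.

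Of 39 interferon-induced genes tested, 28 had a negative difference, with a median of -0.24, and none passed by edgeR. Of the 39 genes, 9 had an unadjusted p below 0.05 lower against a background of 3.96%, and 1, Xaf1, had one higher. Igtp, an immunity-related GTPase gene, stood at 277, 80.3 and 73 CPM in DNMAML and 63.4, 57.1 and 50.3 CPM in Notch1f/f, with a difference of -1.33 (SE 0.51). DNMAML replicate 1 was far above the other libraries in Igtp, and it was also the highest in Gbp7, a guanylate-binding protein gene. Gbp7 stood at 274, 146 and 131 CPM in DNMAML and 128, 112 and 99.9 CPM in Notch1f/f, with a difference of -0.69 (SE 0.24). The summed interferon list was 4935 CPM in DNMAML replicate 1, 3043 and 3029 CPM in replicates 2 and 3, and 2739 to 2892 CPM in Notch1f/f. Without DNMAML replicate 1 the list's median was -0.10.

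Xaf1, an interferon-induced gene tied to cell death, was the interferon gene with the smallest p. It stood at 77.3, 83.1 and 70.9 CPM in DNMAML and 160, 127 and 125 CPM in Notch1f/f, with WT at 63.5 to 68.1 CPM. The difference was 0.83 (SE 0.13, 95% interval 0.55 to 1.11) with an edgeR adjusted p of 0.117. DESeq2 gave an adjusted p of 3.53e-05. All 19 antigen presentation genes had a negative difference, with a median of -0.40, or -0.12 without DNMAML replicate 1. Their summed level was 10983 CPM in DNMAML replicate 1, 6762 and 7382 CPM in replicates 2 and 3, and 6212 to 7041 CPM in Notch1f/f. Of these, Tap1, a peptide transporter gene, and H2-T23 had an unadjusted p below 0.05, and none passed. Tap1 stood at 311, 165 and 136 CPM in DNMAML and 122, 137 and 127 CPM in Notch1f/f, with replicate 1 of DNMAML the highest.

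**Figure D5:**
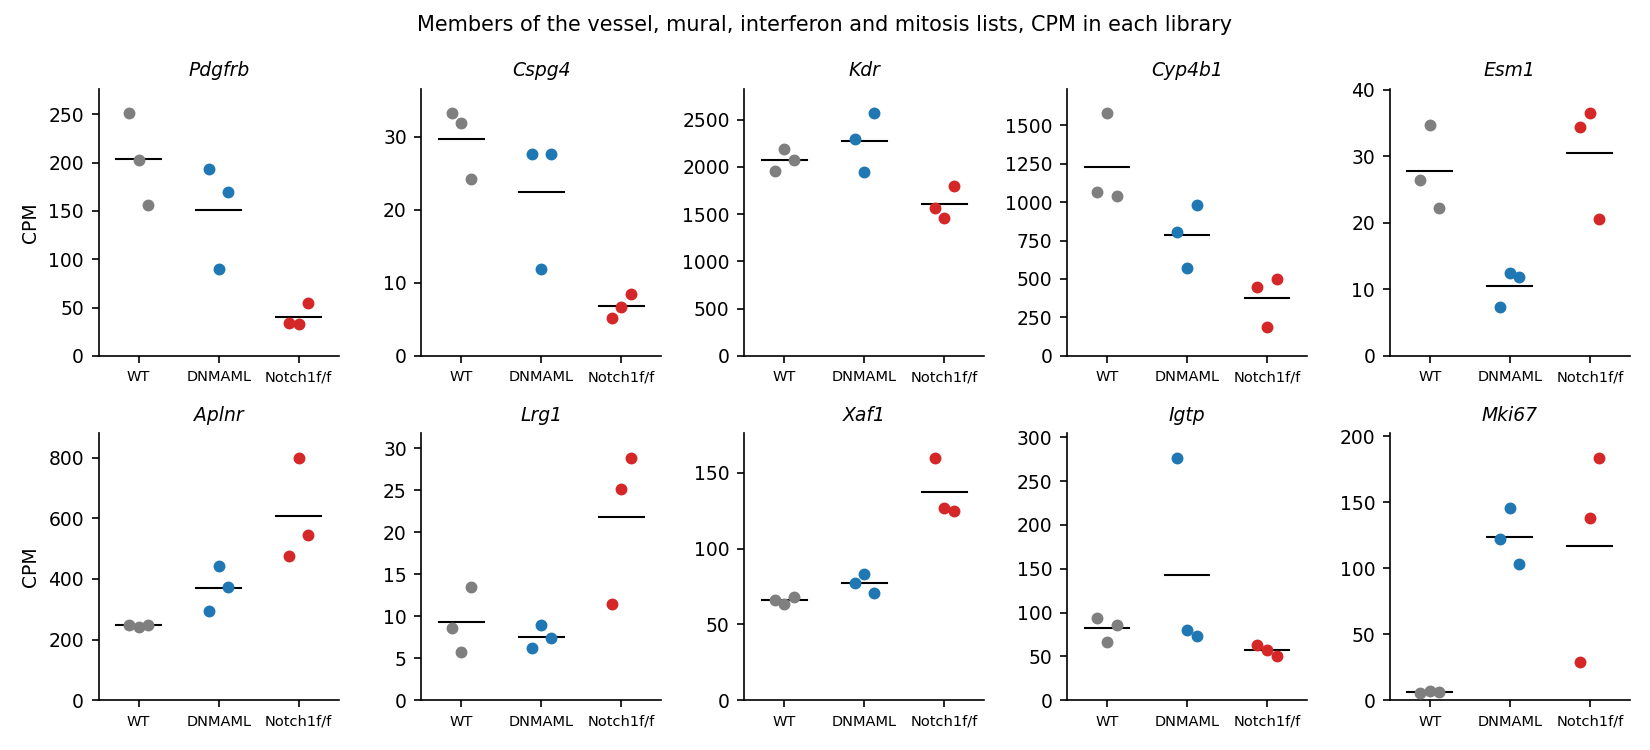
CPM of 10 members of the mural, aerocyte, tip, venous, interferon and mitosis lists in each library (x axis, genotype), with group means as bars. Esm1 is lower in the 3 DNMAML libraries than in the other 6, Xaf1 is high in Notch1f/f, Igtp is high in DNMAML replicate 1 at 277 CPM, and Mki67 is above WT in both genotypes.

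Library sizes of the 6 libraries ran from 18226695 to 27842496 counts. DNMAML replicates 1 and 3 and Notch1f/f replicate 1 came from male mice by their Y-linked counts, so sex was not balanced between the genotypes. With a term for sex, 1 gene was higher and 2 lower, and mt-Nd3 was the gene lost (edgeR adjusted p = 0.0626). Fos, an early-response gene, stood under 500 CPM in DNMAML replicate 2 and Notch1f/f replicate 1 and at 1260 CPM or above in the other 4 libraries.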

How the data were processed

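The values are whole-number counts per gene, deposited by the authors as 1 table. Reads were counted with featureCounts 2.0.1 on Ensembl release 107 of GRCm39, per the file headers, and the recorded command sets neither strand nor multiple mapping. The submitters' processing notes name STAR 2.7 and mm10. Per the labels' protocols, total RNA was depleted of ribosomal RNA and all libraries were prepared together.

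Symbols matched 52073 of 56748 identifiers. Genes were kept by filterByExpr. edgeR 4.0.16 fitted a robust quasi-likelihood model with TMM scaling to all 9 libraries by genotype, and p-values were adjusted over all genes tested. Each SE is the absolute log2 difference divided by the root of F. Alternatives used DESeq2 1.42.0 and limma 3.58.1. On simulated counts for this comparison (18451 genes), 27.1% of 2-fold and 59.8% of 4-fold changes were recovered, with 4 false calls among 85. The real data gave 4 calls in all. With fewer calls the adjustment for multiple testing is stricter, so recovery in the real comparison may be lower than these shares.

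Named genes were the Notch pathway members, the largest changes past the threshold (at least 1 CPM), defining markers, and up to 4 called or otherwise the 2 smallest-p members per list; 44 lists were used. Gm28438, Hgf, Car4, Ednrb, Tbx2, Cyp4b1, Apln, Cd34, Emcn, Acta2, Myh11 and Gucy1a1 were chosen after their values were seen. So were Higd1b, Rgs5, Igtp, Gbp7, Trp53i11, Fscn1, Col4a1, Vwf and the genes in the closing section. The members and lists were chosen with earlier results of these data known. Between 76.6% and 89% of a library's counts below 200 were even, so many fragments appear as pairs of counts. Halved counts were therefore an alternative, and the floor for 0 counts is 3 fragments, or 6 counts, a library, which covers counting error only.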

Additional observations from a re-analysis of the deposited data

How the results depend on the processing

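Counts of genes higher and lower in Notch1f/f were 2 and 2, and they stayed at 2 and 2 with limma-voom, RLE or upper-quartile factors, a stricter filter and halved counts, though limma-voom shared 3 of the 4 genes and had Notch1 in place of Rprl3. They were 56 and 116 with DESeq2, 176 and 520 with no filter on low counts, 0 and 1 with the 6 libraries alone, 1 and 2 with a term for sex, and 6 and 4 with a term for low Fos, chosen after seeing the data. Leaving out 1 library at a time gave 0 to 10 higher and 2 to 21 lower. The extremes came without DNMAML replicate 1 (0 higher) and without DNMAML replicate 2 (10 and 21); without DNMAML replicate 3 there was 1 higher, without Notch1f/f replicate 1 there were 4 higher, and without Notch1f/f replicate 3 there were 8 lower. The cause of these shifts was not tested. With a replicate block the counts were 2 and 2 over 9 libraries and 3 and 5 over the 6 libraries. Of those 8 genes only Gm28438 was among the original 4, the other 7 were different genes, and mt-Nd3, Cmtm8 and Rprl3 each had an edgeR adjusted p of 0.0539. The numbers were not taken to pair libraries: same-numbered DNMAML and Notch1f/f libraries gave correlations of deviations of -0.143, 0.134 and 0.281, and others -0.446 to 0.327. Not every library correlated best with its own number.

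Gm28438 passed in all 22 settings, mt-Nd3 and Cmtm8 in 18 and Rprl3 in 19. Notch1 passed in 4, with differences from -3.96 to -2.65. Signs turned for genes near 0 in at least 1 of the fits that leave out a library: Notch4 ran from -0.18 to 0.24, Rbpj from -0.12 to 0.02, Hes1 from -0.78 to 0.02, Gja4 from -0.16 to 0.50, Pecam1 from -0.08 to 0.10, Cdh5 from -0.09 to 0.05 and Mki67 from -0.58 to 0.37. With 3 libraries a genotype, most 2-fold changes would not pass.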

Other observations

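A group of 13 tested genes had 0 counts in every Notch1f/f library and counts above 0 in every DNMAML library. The reverse held for 3 genes, at 0 in every DNMAML library and above 0 in every Notch1f/f library. Both counts are out of 19486 genes tested. Such genes passed the filter on low counts only through the other groups, so the counts are no result about the genotypes. Apart from Rprl3 and Klk1b22, the 13 genes were near the floor, with a difference of at least 1.4-fold to 3.94-fold. Klk1b22, of the kallikrein-related family whose members are near-identical, held 140, 22 and 52 counts in DNMAML and none in Notch1f/f, at least 9.87-fold lower against the floor of 6 counts per library (edgeR adjusted p = 0.138). Gm35021 held 30, 34 and 46 counts in Notch1f/f and none in DNMAML or WT, at least 7.16-fold higher than DNMAML (edgeR adjusted p = 0.395).

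Around Cmtm8, 88 genes within 5 Mb on either side of its start on chromosome 9 were tested. Of these, 11 (12.5%) had an unadjusted p below 0.05, 7 higher and 4 lower in Notch1f/f, where all genes gave 6.37%. Cmtm8 itself, around which the window was set because it passed, is counted among the 88 and among the 7 higher. Glb1, the lysosomal beta-galactosidase gene, stood at 9.87, 11 and 11.1 CPM in DNMAML and 17, 25.2 and 23.3 CPM in Notch1f/f (difference 1.04, SE 0.22, edgeR adjusted p = 0.276). Cmtm7, the next gene of the family, stood at 11.6 to 12.7 CPM against 13.3 to 20.4 CPM (0.52, SE 0.23).

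Of the remaining genes with the smallest p, Pag1, an adaptor protein gene, stood at 49.7, 25.3 and 40.9 CPM in DNMAML and 11.4, 8.19 and 11.5 CPM in Notch1f/f (difference -1.90, SE 0.29, edgeR adjusted p = 0.138). Sema3b, a secreted semaphorin gene, stood at 18.5, 17.9 and 19 CPM against 42.8, 46 and 50.1 CPM (1.32, SE 0.22, edgeR adjusted p = 0.166). In both genes no library of one genotype reached the other.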
